A study of Homo sapiens with 6 samples.

Results

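The VEGF and angiopoietin family is a set of secreted factors and receptors through which cells instruct blood vessels. It was followed here through 9 genes picked by symbol from the 38648 listed: the ligands VEGFA, VEGFB, VEGFC, PGF, ANGPT1, ANGPT2 and ANGPTL4, and the receptors FLT1 and KDR. Each symbol matched a single listing, and 5 of the 9 had enough reads to be tested. Expression was measured by RNA sequencing in HPC, a human podocyte cell line labelled wild type in genotype. All cultures were in high glucose and received either a lentivirus made to overexpress PRDM16 (3 libraries) or a negative control lentivirus called NC (3 libraries), with 24 h in the titles. PRDM16 is a zinc finger transcription factor, and the comparison asks what its overexpression changes in podocytes under high glucose. Neither the glucose concentration nor the promoter and dose of the lentivirus is given in the sources used here, and cultures without high glucose are not part of the comparison. Whether the 3 libraries of a group are independent cultures is not stated in the labels. Each p-value therefore reflects only the scatter of these libraries, for most tests pooled in part over genes, and that scatter may be technical.

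In the glomerulus, the filter of the kidney, podocytes are the main source of VEGFA. It crosses the basement membrane and acts on KDR of the endothelial cells that line the capillary. FLT1 binds VEGFA, VEGFB and PGF and can act as a trap for them, while VEGFC is best known as the lymphatic growth factor that acts through FLT4. Angiopoietins act through another endothelial receptor, TEK: ANGPT1 activates it and steadies vessels, and ANGPT2 opposes or mimics ANGPT1 depending on the setting. ANGPTL4 is a related secreted protein that blocks lipoprotein lipase, and in rats its production by podocytes has been tied to proteinuria.

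The bases before the starts of 4 members are shown to set 2 expressed ligands, VEGFC and ANGPTL4, beside the 2 receptors, FLT1 and KDR, which were at or next to 0. Promoter sequence from RefSeq (GRCh38.p14) was used for 6 of the 9 members, all but VEGFA, ANGPT1 and ANGPT2. The 250 bases before the start annotated by RefSeq lie at chr4:176792923-176793172 (minus strand) for VEGFC, chr19:8363905-8364154 (plus strand) for ANGPTL4, chr13:28495129-28495378 (minus strand) for FLT1 and chr4:55125596-55125845 (minus strand) for KDR. For ANGPTL4 the RefSeq start lies 26 bases inside the gene as the deposited tables place it, so its window covers those bases. Capitals mark the core of the hypoxia response element, searched as ACGTG or GCGTG on both strands (CACGT and CACGC when read from the other strand), and matches may overlap.
VEGFC: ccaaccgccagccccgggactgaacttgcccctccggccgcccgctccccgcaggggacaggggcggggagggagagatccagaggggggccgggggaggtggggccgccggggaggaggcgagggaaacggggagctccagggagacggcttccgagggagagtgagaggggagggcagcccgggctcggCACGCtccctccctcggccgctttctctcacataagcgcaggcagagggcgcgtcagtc
ANGPTL4: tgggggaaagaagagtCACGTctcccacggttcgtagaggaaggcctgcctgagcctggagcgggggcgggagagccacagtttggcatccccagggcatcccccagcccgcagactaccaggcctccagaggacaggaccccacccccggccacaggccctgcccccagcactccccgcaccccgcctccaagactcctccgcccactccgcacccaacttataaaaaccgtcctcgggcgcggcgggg
FLT1: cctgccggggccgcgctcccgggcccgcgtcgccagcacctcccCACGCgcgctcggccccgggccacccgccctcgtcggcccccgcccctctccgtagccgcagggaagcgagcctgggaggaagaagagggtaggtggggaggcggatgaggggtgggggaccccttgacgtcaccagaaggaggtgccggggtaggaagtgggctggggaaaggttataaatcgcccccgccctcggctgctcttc
KDR: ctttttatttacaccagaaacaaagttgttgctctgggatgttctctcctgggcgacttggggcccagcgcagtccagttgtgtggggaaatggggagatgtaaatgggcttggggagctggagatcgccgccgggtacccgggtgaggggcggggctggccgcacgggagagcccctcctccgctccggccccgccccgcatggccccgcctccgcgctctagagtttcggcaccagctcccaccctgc
The core occurred once in each of VEGFC, ANGPTL4 and FLT1 and in none of the 250 bases of KDR. It is a common string, present in 43.2% of the 35116 such windows in the table. All 4 windows were rich in G and C, from 65.2% in KDR to 74.0% in VEGFC, against a median of 58.0% over all windows. The 2 expressed ligands had 22 (VEGFC) and 16 (ANGPTL4) CpG dinucleotides and the 2 receptors 25 (FLT1) and 17 (KDR), so these pairs interleaved. Of the expressed ligands not shown, VEGFB had 30, above both receptors. PGF had 18 before one annotated start, between the receptors, and 35 before another, above both.

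The libraries held 20147135 to 41280350 gene counts. PRDM16 itself had 11, 18 and 24 counts with the PRDM16 lentivirus and 0 in each NC library (edgeR adjusted p = 0.000771). The level reached was low, since TEK had 15, 25 and 31 counts in the same PRDM16 libraries. Markers of the mature podocyte were partly absent: 9 of 15 listed were under 1 TPM (a level per gene length that sums to 1000000 in a library) on average, among them NPHS1 and WT1. The podocyte markers summed to 1600 to 2160 TPM with PRDM16 and 1940 to 2250 TPM with NC, most of it from VIM, a filament gene of many mesenchymal cells, with 1650 TPM with PRDM16 and 1810 TPM with NC. Others were well expressed, such as KIRREL1 and PODXL with means of 110 and 49.3 TPM with PRDM16, against 128 and 58.1 TPM with NC. In edgeR, on counts, the log2 fold change was -0.09 for KIRREL1, -0.10 for PODXL and -0.00 for VIM (adjusted p 0.657, 0.628 and 0.997). Of 8 tested podocyte markers 3 were higher and 5 lower with PRDM16, and 0 passed. Endothelial cells, the usual bearers of FLT1, KDR and TEK, left few marks. Of 14 endothelial markers 10 were under 1 TPM, CLEC14A was at 0, and PECAM1 reached at most a mean of 0.0151 TPM in either group. The summed level of these markers was 86.1 to 104 TPM with PRDM16 and 78.1 to 97.0 TPM with NC, mostly ROBO4 and ENG. Markers of pericytes and mesangium summed to 431 to 495 TPM with PRDM16 and 435 to 514 TPM with NC, with 3 of 9 under 1 TPM. Tubule and parietal markers summed to 3570 to 3840 TPM with PRDM16 and 3500 to 3710 TPM with NC, with 4 of 11 under 1 TPM and most of the sum from the keratins KRT8 and KRT18. Their part in the results was not tested. In bulk RNA, fewer cells of a type and less RNA per cell cannot be told apart.

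The cells expressed VEGF ligands and hardly any of their signalling receptors. VEGFA was the most abundant member, with a mean of 94.9 ± 10.8 TPM over all libraries (SD, n = 6), above 93.0% of the genes with any count. VEGFC followed with 81.3 ± 7.79 TPM and VEGFB with 57.8 ± 3.29 TPM. PGF had 23.9 ± 4.21 TPM and ANGPTL4 21.2 ± 4.16 TPM. VEGFA stood above VEGFC within each of the 6 libraries, although the range of TPM of the 2 genes over the libraries overlapped (lowest VEGFA 82.2, highest VEGFC 89.4). The steps from VEGFC to VEGFB and from VEGFB to PGF were clear of any overlap. PGF and ANGPTL4 overlapped in range, with PGF the higher in 5 of 6 libraries.

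**Figure D1:**
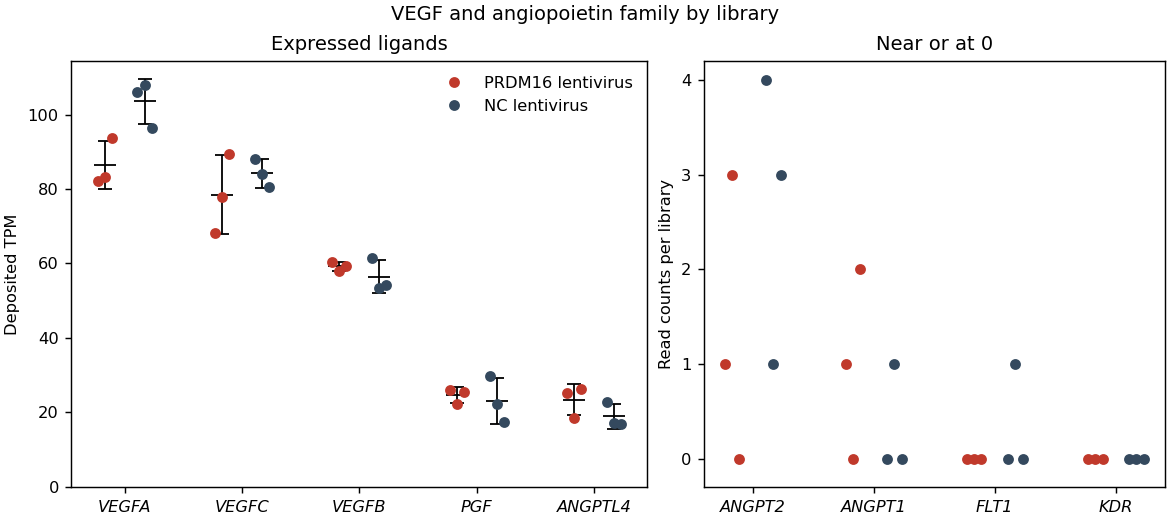
Left, deposited TPM of the 5 expressed ligands in each library (points), with the mean and SD of the 3 libraries of a group in black. Right, read counts of the 4 members near or at 0, which reached at most 4 counts in a library, while VEGFA had 82.2 to 93.8 TPM with PRDM16 and 96.5 to 108 TPM with NC.

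VEGFA, the founding member and the main endothelial survival factor, occupies bases 43770209 to 43786487 of chromosome 6 (plus strand of hg38, the build of all gene positions given). The counts of VEGFA were 2425, 3443 and 5338 in the PRDM16 libraries and 3244, 3899 and 2794 in the NC libraries. Scaled to library size with TMM factors, which correct for composition, this was 126, 124 and 127 CPM (counts per 1000000) with PRDM16 and 141, 135 and 134 CPM with NC. All 3 PRDM16 libraries lay below all 3 NC libraries, by a small margin. VEGFA was the tightest member, with a coefficient of variation of 1.59% among PRDM16 and 2.63% among NC libraries. The log2 fold change was -0.12 ± 0.11 (SE), a fold of 0.92 with a 95% interval of 0.789 to 1.07, and it did not pass the edgeR quasi-likelihood test (adjusted p = 0.528). The SE and p of edgeR draw on the variance of all tested genes, so they do not measure the scatter of VEGFA alone. VEGFA was the only member of the 5 tested whose groups did not overlap, and of all 15381 tested genes 8.77% were lower with PRDM16 without overlap. POLR1C, a polymerase subunit on the same strand, overlaps its span but shares 0 exon bases with it.

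VEGFC, on chromosome 4 at 176683538 to 176792922 (minus strand), had 62.3, 68.7 and 72.2 CPM with PRDM16 and 69.6, 62.7 and 66.6 CPM with NC. The groups overlapped, with the lowest and the highest library both treated with PRDM16. The fold was 1.02 (95% interval 0.87 to 1.20), with an edgeR adjusted p of 0.886. Its sign depended on the scaling, since TPM averaged 78.5 ± 10.6 with PRDM16 and 84.2 ± 3.8 with NC (SD, n = 3 each), and with library totals alone the log2 fold change was -0.03.

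VEGFB, a ligand of FLT1 linked to fatty acid uptake by endothelium in mice, lies on chromosome 11 at 64234584 to 64239264 (plus strand). It had 44.2, 40.8 and 38.3 CPM with PRDM16 and 38.9, 32 and 35.9 CPM with NC. The highest NC library stood just above the lowest PRDM16 library. The log2 fold change of 0.21 ± 0.12 (SE) did not pass (edgeR adjusted p = 0.361), and the interval of the fold ran from 0.968 to 1.38. PGF, the placental growth factor, another FLT1 ligand, lies on chromosome 14 at 74941830 to 74955764 (minus strand) and had 20.1, 16.5 and 17.5 CPM with PRDM16 against 19.8, 14.2 and 12.1 CPM with NC. The groups overlapped, and NC library 1 stood above PRDM16 libraries 2 and 3. The log2 fold change was 0.23 ± 0.16 (SE; edgeR adjusted p = 0.422). This value rested on single libraries, since it was 0.44 without NC library 1 and 0.09 without NC library 3. An antisense gene shares 14.3% of the exon bases of PGF but had only 75 counts in all.

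Neither receptor was detected at a level that could be compared. KDR, the main signalling receptor of VEGFA, had 0 counts in all 6 libraries, which allows up to 0.0186 CPM by the 3 counts that a count of 0 leaves possible over the pooled libraries. FLT1 had 0 counts in every PRDM16 library and 1 count in a single NC library. Intervals and limits of this kind cover counting error only.

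ANGPT1 and ANGPT2 were as low. ANGPT1 had 1, 0 and 2 counts with PRDM16 and 0, 1 and 0 with NC. ANGPT2 had 1, 3 and 0 counts with PRDM16 and 4, 1 and 3 with NC. ANGPT2 shares 1.48% of its exon bases with MCPH1 on the other strand, and the strand setting of the counting is not given in the sources used here. No change could be detected at this depth for these 4 genes, none of which passed the filter on low counts.

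ANGPTL4 had the largest log2 fold change of the 5 tested members. It lies on chromosome 19 at 8364129 to 8374373 (plus strand) and had 382, 395 and 774 counts with PRDM16, against 361, 322 and 252 with NC. In CPM these were 19.9, 14.2 and 18.5 with PRDM16 and 15.7, 11.2 and 12.1 with NC. PRDM16 libraries 1 and 3 lay above all NC libraries and PRDM16 library 2 lay below NC library 1, so the groups overlapped. The means were 17.5 ± 2.97 CPM with PRDM16 and 13.0 ± 2.38 CPM with NC (SD, n = 3 each). The log2 fold change was 0.43 ± 0.15 (SE), a fold of 1.35 (95% interval 1.08 to 1.68), with an unadjusted p of 0.0093 that did not pass over all genes (edgeR adjusted p = 0.291). It was the only member with an unadjusted p under 0.05, a level that 9.23% of all tested genes reached with higher values. Which member reached that level depended on the processing. With the length and GC trend removed, the unadjusted edgeR p was 0.213 for ANGPTL4 and 0.00709 for VEGFA, which was lower with PRDM16. In limma on log2 of TPM plus 1 it was 0.128 for ANGPTL4 and 0.016 for VEGFA. Without NC library 1, PGF (0.00744) and VEGFB (0.0425) joined ANGPTL4 (0.00211), all higher with PRDM16 by edgeR.

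At an adjusted p under 0.05, 0 of the 5 tested members passed in edgeR, and likewise 0 in DESeq2 and 0 in limma-voom. ANGPTL4 was the 1 member with an unadjusted p under 0.05 in each of these tools. Of all 15381 tested genes 10 passed in edgeR (0.065%), 9 of them higher (0.0585%) and 1 lower (0.0065%) with PRDM16, so a count of 0 in 5 is close to the background. Lower values with an unadjusted p under 0.05 were found for 0 of the 5 members and for 6.76% of all tested genes. The members' median log2 fold change was 0.21 and that of all tested genes -0.02, with 4 members higher and 1 lower.

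Over the tested genes as a whole, the log2 fold change moved with base composition and length. GC content was known for 14171 tested genes, and over these it rose with the log2 fold change (Spearman's rho = 0.638). Gene length ran the other way over all tested genes (rho = -0.392). Both describe genes, which are no replicates, and carry no p. ANGPTL4 and PGF, with 63.5% and 63.4% GC, are richer than 93.3% and 93.2% of those genes, and VEGFB has 61.8%. VEGFC has 47.1% and VEGFA 57.2%. With the length and GC trend taken out of each library, the log2 fold changes were 0.16 for ANGPTL4, -0.05 for PGF, -0.05 for VEGFB, 0.05 for VEGFC and -0.23 for VEGFA, and 0 of the 5 passed. The 3 members with the highest GC content were those whose values shrank or changed sign, and the value of VEGFA moved further from 0. The part of base composition in these results was not tested beyond this correction.

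**Figure D2:**
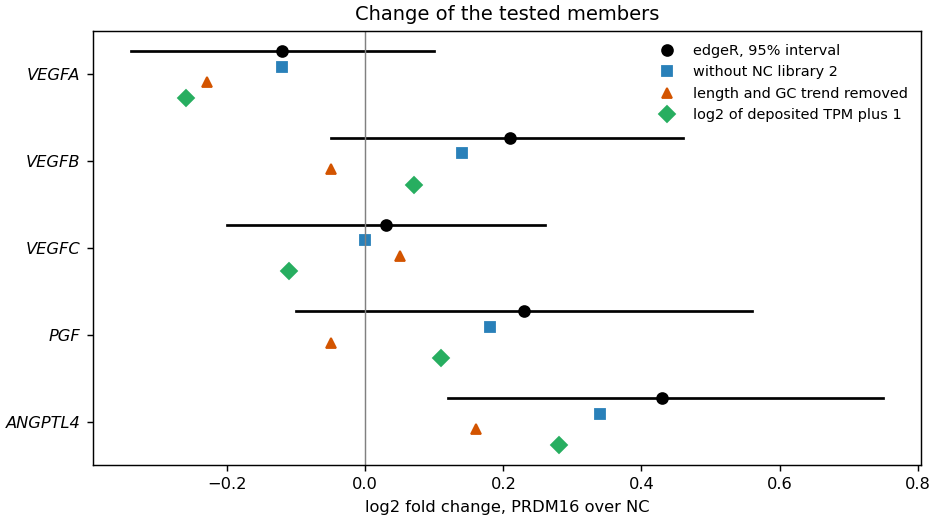
The log2 fold change of the 5 tested members, PRDM16 over NC, from edgeR with its 95% interval (black) and as point values under 3 other settings. The intervals of VEGFA, VEGFB, VEGFC and PGF cross 0, that of ANGPTL4 runs from 0.12 to 0.75, and with the length and GC trend removed ANGPTL4 lies at 0.16.

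The make-up of the ligand pool was read from TPM. The 7 ligands summed to 262, 260 and 294 TPM with PRDM16 and to 308, 285 and 266 TPM with NC, with overlap between the groups. VEGFA made up 31.4%, 32.1% and 31.9% of this sum with PRDM16, against 34.4%, 37.8% and 36.3% with NC. All 3 PRDM16 shares were below all 3 NC shares, a difference of -4.4 percentage points between means of 31.8% ± 0.369 with PRDM16 and 36.2% ± 1.71 with NC (SD, n = 3 each). The exact two-sided permutation p was 0.1, the smallest that 3 against 3 libraries can give. VEGFB held 21.8% ± 1.53 with PRDM16 and 19.7% ± 0.852 with NC, and ANGPTL4 held 8.57% ± 1.27 with PRDM16 and 6.62% ± 0.719 with NC.

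**Figure D3:**
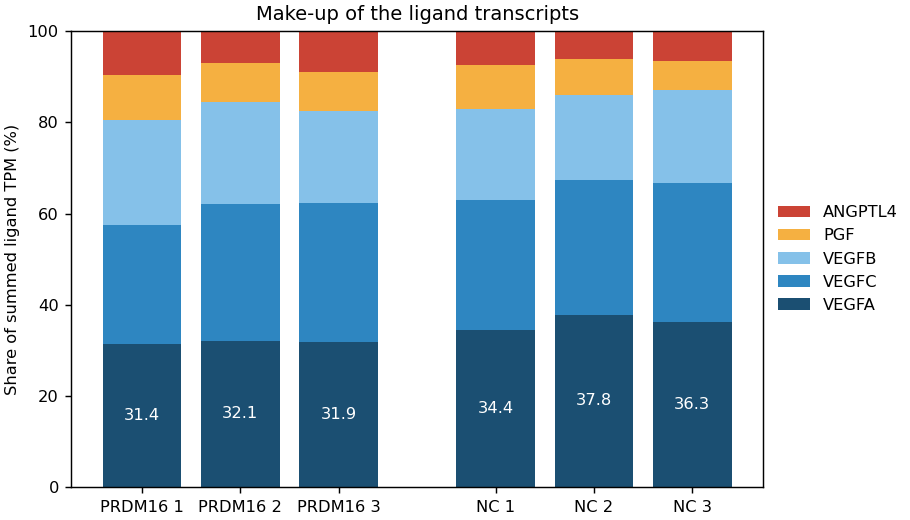
Share of each expressed ligand in the summed TPM of the 7 ligands, by library, with the share of VEGFA printed in percent. VEGFA held 31.4% to 32.1% in the PRDM16 libraries and 34.4% to 37.8% in the NC libraries, and ANGPT1 and ANGPT2 are too low to be seen.

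The genes most like VEGFA over the 6 libraries did not include another member. Among 9566 genes with a mean of at least 10 CPM, the highest Pearson correlations of log2 CPM with VEGFA belonged to CTDNEP1, a phosphatase of the nuclear envelope (r = 0.983), NBPF12 (0.954), the splicing factor SRSF4 (0.95), R3HDM2 (0.947) and GPR89A (0.944). NBPF12 and GPR89A have near-identical copies, so their counts are uncertain. CTDNEP1 had 80.2, 77.3 and 83.0 CPM with PRDM16 and 120, 97.0 and 102 CPM with NC. None of the 5 passed in edgeR (adjusted p 0.222 to 0.515), and since VEGFA spanned only 1.14-fold from its lowest to its highest library, the likeness rests on small differences. The 5 were the highest of 9566 correlations over only 6 libraries, and whether they exceed those of unrelated genes was not tested. The r of the other members with VEGFA was -0.551 for VEGFB, -0.425 for ANGPTL4, -0.159 for PGF and -0.015 for VEGFC, over the same 6 libraries.

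The other genes of the pathway were read from 11 lists holding 177 genes, of which 148 could be tested. In edgeR 0 of them passed, with a lowest adjusted p of 0.222 for SPHK1. At an unadjusted p under 0.05 there were 18 (12.2%), 10 higher and 8 lower with PRDM16, against 16.0% of all tested genes. Groups did not overlap in 21.6% of the 148, against 21.0% of all tested genes.

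Among receptors and partners, the co-receptors were well expressed while the receptor kinases were low or at 0. NRP1, the neuropilin that presents VEGFA to KDR, had 80.7, 82.0 and 88.0 CPM with PRDM16 and 89.1, 109 and 95.2 CPM with NC. The PRDM16 libraries were all lower, but the log2 fold change of -0.22 ± 0.11 (SE) did not pass (edgeR adjusted p = 0.320). It was -0.13 without NC library 2 and -0.10 with the length and GC trend removed. NRP2, the partner of FLT4, averaged 123 ± 8.56 CPM with PRDM16 and 134 ± 10.0 CPM with NC. FLT4 had at most 5 counts in any library and the ligand VEGFD 0 in all. TEK was low but measurable, at 0.440 TPM with PRDM16 and 0.469 TPM with NC (log2 fold change of counts 0.04 ± 0.30 SE). PTPRB, the phosphatase that restrains TEK in endothelium, averaged 8.83 TPM with PRDM16 and 10.5 TPM with NC. The integrins of the list that bind angiopoietins or matrix were abundant, with ITGAV at 135 ± 13.0 CPM with PRDM16 and 171 ± 36.3 CPM with NC. Its log2 fold change, -0.34, was -0.15 without NC library 2 and -0.09 with the length and GC trend removed. Over the 9 tested genes of this list the median was -0.12, 3 were higher and 6 lower. Of the 7 other angiopoietin-like genes only ANGPTL2 was tested, with a mean of 55.0 ± 3.51 CPM with PRDM16 and 52.9 ± 4.76 CPM with NC.

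**Figure D4:**
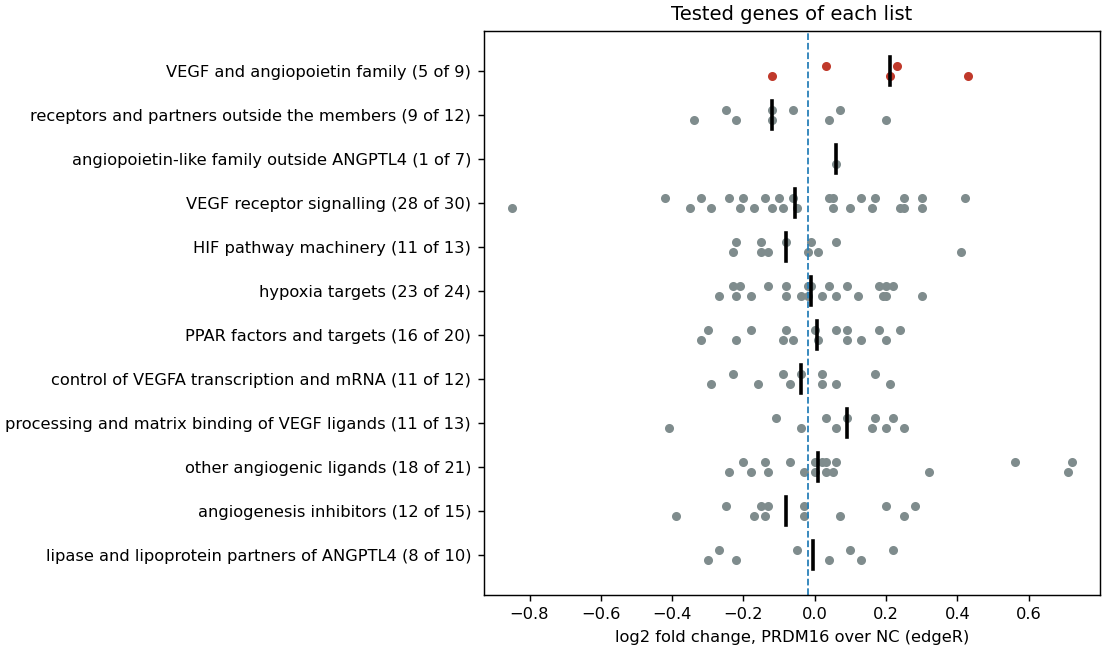
The log2 fold change, PRDM16 over NC, of each tested gene (points) in the family (red) and the 11 pathway lists (grey), with the median of each list as a black bar, that of all tested genes as a dashed line, and tested over listed genes in brackets. Medians of the 11 lists lie between -0.12 and 0.09, and 0 genes passed.

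The intracellular arm of VEGF signalling was expressed almost throughout, with 28 of 30 genes tested, 13 higher and 15 lower and a median log2 fold change of -0.06. The smallest p belonged to SPHK1, the sphingosine kinase, with 128, 115 and 108 CPM with PRDM16 and 101, 78.0 and 82.5 CPM with NC. All PRDM16 libraries were higher (log2 fold change 0.42 ± 0.12 SE, edgeR adjusted p = 0.222), and with the length and GC trend removed the value was 0.15. SRC, the tyrosine kinase, averaged 206 ± 19.4 CPM with PRDM16 and 167 ± 21.0 CPM with NC, and PPP3CA, a catalytic subunit of calcineurin, averaged 28.2 ± 1.90 CPM with PRDM16 and 35.2 ± 4.71 CPM with NC. Their log2 fold changes, 0.30 and -0.32, were 0.19 and -0.16 with the length and GC trend removed. At an unadjusted p under 0.05 this list held 5 higher and 2 lower genes of 28, against 9.23% higher and 6.76% lower of all tested genes.

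VEGFA and ANGPTL4 are both textbook targets of the hypoxia-inducible factors, so that pathway was read beside them. Of 11 tested genes of its machinery and 23 tested targets, 0 passed and 0 had an unadjusted p under 0.05, against 0.065% and 16.0% of all tested genes. The median log2 fold change was -0.08 for the machinery and -0.01 for the targets. HIF1A averaged 203 ± 18.1 CPM with PRDM16 and 225 ± 47.1 CPM with NC. Its log2 fold change of -0.15 ± 0.13 (SE) turned to 0.04 without NC library 2 and to 0.05 with the length and GC trend removed. EPAS1 averaged 354 ± 15.9 CPM with PRDM16 and 375 ± 16.6 CPM with NC. The oxygen sensor EGLN1 had the smallest p of its list (log2 fold change -0.23 ± 0.12 SE, edgeR adjusted p = 0.328), with means of 46.4 CPM with PRDM16 and 54.2 CPM with NC. Its log2 fold change was -0.12 without NC library 2 and -0.06 with the length and GC trend removed. Among targets the glucose transporter SLC2A1 averaged 426 ± 18.8 CPM with PRDM16 and 366 ± 28.4 CPM with NC (log2 fold change 0.22 ± 0.12 SE). With the length and GC trend removed the log2 fold change of SLC2A1 was 0.11. BNIP3L, a receptor for removal of mitochondria, averaged 93.1 ± 5.91 CPM with PRDM16 and 109 ± 17.2 CPM with NC. Its log2 fold change, -0.23, was -0.10 without NC library 2 and -0.14 with the length and GC trend removed.

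ANGPTL4 is also a target of the PPAR receptors, which sense fatty acids. In that list 16 of 20 genes were tested, 8 higher and 8 lower, with a median of 0.00. PPARA averaged 16.8 ± 0.824 CPM with PRDM16 and 21.0 ± 1.87 CPM with NC (log2 fold change -0.32 ± 0.13 SE), lower in all 3 PRDM16 libraries, and PDK4, another classical target, was at 0 in all 6 libraries. The log2 fold change of PPARA was -0.25 without NC library 2 and -0.24 with the length and GC trend removed. None of the 16 tested genes passed in edgeR. Of the lipases and lipoprotein receptors that ANGPTL4 meets, 8 of 10 were tested, with a median of -0.01. LPL, its main target enzyme, was below the filter, with a mean of 0.0421 TPM with PRDM16 and 0.0575 TPM with NC. SEL1L, an adaptor of the disposal of misfolded proteins, averaged 78.6 ± 4.39 CPM with PRDM16 and 96.8 ± 21.7 CPM with NC. Its log2 fold change, -0.30, was -0.10 without NC library 2 and -0.07 with the length and GC trend removed.

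Genes that control, cut or hold the ligands gave 0 that passed in edgeR. Among 11 tested regulators of VEGFA transcription and mRNA the median was -0.04, with SP1 at 74.8 ± 4.77 CPM with PRDM16 and 88.1 ± 9.38 CPM with NC. The log2 fold change of SP1, -0.23, was -0.15 with the length and GC trend removed. Among 11 tested processing and matrix genes the median was 0.09. ADAMTS3, the protease that activates VEGFC, had the smallest p there, with 31.9 ± 3.44 CPM with PRDM16 and 42.6 ± 11.2 CPM with NC (log2 fold change -0.41 ± 0.17 SE, and -0.21 without NC library 2). HSPG2, the matrix proteoglycan perlecan, averaged 1010 ± 81.2 CPM with PRDM16 and 844 ± 94.2 CPM with NC. Its log2 fold change, 0.25, was 0.14 with the length and GC trend removed. The protease FURIN averaged 59.3 ± 1.75 CPM with PRDM16 and 50.7 ± 6.0 CPM with NC. The log2 fold change of FURIN, 0.22, was 0.06 with the length and GC trend removed.

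Among other angiogenic ligands and inhibitors 0 genes passed in edgeR. Of 18 tested ligands 10 were higher and 8 lower (median 0.01). Groups did not overlap in 3 of the 18, all higher with PRDM16, against 12.2% of all tested genes higher without overlap. These were also the 3 with the smallest p, by which they were picked. MDK, the heparin-binding factor midkine, had 92.4, 90.8 and 96.0 CPM with PRDM16 and 83.8, 69.0 and 70.6 CPM with NC (log2 fold change 0.32 ± 0.11 SE, edgeR adjusted p = 0.291), and 0.04 with the length and GC trend removed. TYMP, a thymidine phosphorylase, averaged 1.61 CPM with PRDM16 and 0.977 CPM with NC (log2 fold change 0.71 ± 0.25 SE, and 0.32 with the length and GC trend removed). APLN, the precursor of the peptide apelin, averaged 1.81 CPM with PRDM16 and 1.22 CPM with NC (0.56 ± 0.24 SE). Its log2 fold change was 0.65 without NC library 2 and 0.46 with the length and GC trend removed. Of 12 tested inhibitors 4 were higher and 8 lower (median -0.08). COL4A3, whose collagen yields the fragment tumstatin, averaged 18.0 ± 2.08 CPM with PRDM16 and 23.5 ± 4.03 CPM with NC (log2 fold change -0.39, and -0.23 without NC library 2). SEMA3F, a semaphorin that binds neuropilins, averaged 41.3 ± 4.10 CPM with PRDM16 and 34.0 ± 3.75 CPM with NC. Its log2 fold change, 0.28, was 0.12 with the length and GC trend removed. COL18A1, the source of endostatin, averaged 308 ± 19.3 CPM with PRDM16 and 260 ± 26.4 CPM with NC. The log2 fold change of COL18A1, 0.25, was 0.03 with the length and GC trend removed.

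Of the 5 endothelial markers that could be tested, 5 were higher with PRDM16 and 0 passed in edgeR, while 7211 of all 15381 tested genes were higher. EGFL7 had the smallest p, at 27.5, 27.3 and 25.5 CPM with PRDM16 and 22.6, 18.3 and 20.3 CPM with NC (log2 fold change 0.39 ± 0.12 SE, adjusted p = 0.271, and 0.16 with the length and GC trend removed). ENG, a TGF-beta co-receptor, averaged 43.2 ± 1.20 CPM with PRDM16 and 34.8 ± 5.36 CPM with NC. With the length and GC trend removed, the log2 fold change was 0.13 for ENG, 0.04 for SOX17 and 0.00 for ROBO4. That of VWF did not shrink, at 0.16 against 0.12 before the correction. The defining endothelial genes among the rest, CDH5 and PECAM1, did not pass the filter on low counts, and KDR and FLT1 were at or next to 0 in the same libraries.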

How the data were processed

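RNA sequencing libraries were prepared from oligo(dT)-selected RNA, per the labels' protocols. The submitters' processing notes name hg38 as genome build. Which aligner, counting tool, strand setting and annotation release were used is not given in the sources used here. Each deposited table holds raw read counts, TPM and FPKM per gene, per the file headers. The deposited FPKM matches counts over length and library total (largest deviation 4.161e-05%), and the deposited TPM sums to 1000000 per library. Lines of 7 genes, broken over several lines, were joined. Groups came from the titles.

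Counts of 38648 genes were filtered with edgeR's default (minimum count 10, minimum total 15), leaving 15381, and tested with edgeR 4.0.16 (quasi-likelihood, robust, TMM) in R 4.3.3, with Benjamini-Hochberg adjustment over all tested genes and 0.05 as threshold. A standard error is the log2 fold change over the root of its F value, whose variance is moderated over all tested genes. DESeq2 1.42.0, limma-voom (limma 3.58.1), other scalings, no filter, a replicate block, a length and GC correction (splines with 5 degrees of freedom, GC content from GENCODE transcripts for 92.1% of tested genes), summed listings and each library left out were alternatives. The procedure was tested on simulated data with 1 dispersion for all genes. True log2 fold changes of 1 and 2 in size were recovered in 83% and 98.9% of cases, with 11 false calls. Changes as small as those of the members were not simulated. Replicate pairs differed by more than sampling noise (chi-square per degree of freedom 11.3 to 34.8). The members, the 11 pathway lists and 4 marker lists were chosen with earlier results of these data known. Named were all members, up to 3 genes with the smallest p per list, the 5 genes most like VEGFA, and a few genes added for their role or level after their values were seen.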

Additional observations from a re-analysis of the deposited data

How the results depend on the processing

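In each of the 15 alternatives 0 members and 0 of the pathway list genes passed. The number of all genes that passed was 10 in edgeR, 5 with library totals only, 107 with no filter on low counts, 41 with DESeq2, 4 with limma-voom, 5 with the length and GC correction, 18 with listings of a symbol summed and 3 with limma on log2 of deposited TPM plus 1, a setting chosen after seeing the data. Leaving out a library gave 7 to 173 genes, namely 173 when NC library 3 was dropped, 59 for PRDM16 library 2 and 20 for PRDM16 library 1. The cause was not tested. VEGFA (-0.26 to -0.10) and ANGPTL4 (0.16 to 0.58) kept their sign throughout. The adjusted p of ANGPTL4 ranged from 0.0929, when NC library 1 was dropped, to 0.786 with the length and GC correction. With single libraries left out PGF ranged from 0.09 to 0.44. The sign turned for VEGFB and PGF with the length and GC correction (-0.05 each), and for VEGFC with library totals only (-0.03), when PRDM16 library 3 was dropped (-0.02, in a range of -0.02 to 0.09 over single libraries left out) and on TPM (-0.11). On the TPM scale the median of all tested genes was -0.114, against -0.0244 in edgeR. The share of VEGFA differed by -5.29 to -3.58 percentage points with single libraries left out. FPKM gives the same shares as TPM by construction and is no check of it. With the replicate number as a block 10 genes and 0 members passed. Same-numbered libraries did not deviate together (r = 0.0945, -0.104 and -0.131), so the numbers were not used as a pairing. Depth limits ANGPT1, ANGPT2, FLT1 and KDR, with at most 4 counts in a library.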

Other observations

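Among the pathway genes, HRAS, a small GTPase below the VEGF receptors, varied between libraries far more than any member. It had 968, 468 and 400 counts with PRDM16 and 992, 199 and 1816 counts with NC, so that each group holds both high and low libraries. Its log2 fold change was -0.85 ± 1.16 (SE; edgeR adjusted p = 0.713). The second listing of HRAS held at most 2 counts in any library, and with both listings summed the value was -0.86.

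LDHA and HNRNPL were counted almost wholly at a second listing outside the chromosomes. LDHA, lactate dehydrogenase A and a hypoxia target, had 13, 14 and 24 counts with PRDM16 and 8, 16 and 13 with NC on chromosome 11. At its second listing it had 454, 905 and 1201 counts with PRDM16 and 1393, 809 and 647 with NC. Summed over both, the log2 fold change was -0.48 (edgeR adjusted p = 0.513). For HNRNPL, which binds VEGFA mRNA, the summed value was -0.31 (edgeR adjusted p = 0.662).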
